A study of Mus musculus with 48 samples.

Results

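Arc, the activity-regulated cytoskeleton-associated gene, was followed through 4 brain regions of mice that had flown in orbit or stayed on the ground, with and without an antioxidant. It is 1 of 15782 genes in each of the 4 tables of Q3-normalized counts, in which the counts of a library are scaled to a common upper quartile. Arc was selected on its values in FLT-SAL against GC-SAL mice, so every comparison that contains saline mice is a description of its values, with no test. Tests of Arc compared BuOE-treated mice only. In the fits of single regions, however, the saline mice also entered the estimate of spread behind these tests. Results of the BuOE-treated mice were known too when Arc and its tests were chosen, so the tests are not independent of that choice.

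The assay was GeoMx spatial profiling, in which DNA-tagged probes bind transcripts on a tissue section and light releases the tags of a chosen area of illumination (AOI) for sequencing. The 48 AOIs came from 12 male C57BL/6 mice, 3 to a group (GC-SAL and GC-BuOE on the ground, FLT-SAL and FLT-BuOE in flight), with 1 AOI of each mouse in cornu ammonis 1 (CA), the dentate gyrus (DG), the frontal cortex (FCT) and the cortex (CT). Mice were 10 weeks old at launch, and the flight (FLT) lasted 35 days, on the International Space Station, while ground controls (GC) lived for as long in flight hardware cages, on a protocol begun 3 days later. BuOE (MnTnBuOE-2-PyP5+), a manganese porphyrin that mimics superoxide dismutase, was injected under the skin at 1 mg/kg from 7 days before launch and then weekly, and SAL mice received saline. After splashdown the flown animals came to the laboratory in under 20 h. The 3 sections of a group lay on 1 slide, 4 slides in all, so groups and slides cannot be told apart. An AOI holds all cells of its area, so fewer cells with Arc and less Arc RNA in each cell cannot be told apart either.

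Arc is an immediate early gene: neurons transcribe it within minutes of strong synaptic input, through cAMP response element binding protein, serum response factor and MEF2 factors at its regulatory DNA. Its mRNA travels into dendrites and is translated near active synapses, where the ARC protein works with endophilin and dynamin to draw AMPA-type glutamate receptors into the cell. ARC descends from a retroelement Gag protein and can form capsids that carry RNA, and mice without it form long-term memories poorly. In the hippocampus, principal cells of CA1 use Arc when an animal explores a place, whereas few granule cells of the dentate gyrus do so at a time.

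In the GENCODE annotation of GRCm38, Arc lies on chromosome 15 from 74669083 to 74672570, on the minus strand. Its 2 annotated transcripts each have 3 exons, and the whole coding sequence of 1188 bases, 74671185 to 74672372, sits in the first exon. The other exons, the last of 911 bases, hold only 3′ untranslated sequence. The neighbouring protein-coding genes are Mroh4, which ends at 74636353, and Jrk, which starts at 74702301, and no annotated gene overlaps Arc. A single probe measures each gene on this platform, and the recovered counts of Arc equal those of 1 probe in all 48 AOIs. Levels can be compared between samples for 1 probe but not between genes, since probes bind with different efficiency.

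The 48 libraries held between 322629 and 1579380 deduplicated probe counts, of which Arc took 20 to 574. Counting alone then gives a relative error between 4.17% and 22.4% for Arc, and this error covers counting only. In DG the Arc count was 20 to 98, with a median of 46.5, against medians of 116.5 in CA, 199.5 in CT and 217.5 in FCT. Arc stood 3.05 to 39.5 times above the negative-control probes, so it was over background in every AOI. The lowest count was that of DG in FLT-BuOE mouse 1. FLT-SAL libraries were the deepest, with a median of 991426 counts against 548888 in FLT-BuOE, 628308 in GC-SAL and 639735 in GC-BuOE.

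Markers of CA1 and dentate granule cells were high in the regions that the labels name, and those of cortical layers only in part. The CA1 pyramidal genes Wfs1, Fibcd1 and Pou3f1 had means of 91.8, 91.3 and 100.7 Q3-normalized counts in CA and no more than 43.4 in another region. Prox1, the transcription factor of dentate granule cells, averaged 112 in DG and no more than 32.2 elsewhere. Fezf2, of deep cortical layers, averaged 70.3 in FCT and 54.9 in CT against 34.1 in CA and 22.5 in DG. Cux2 and Tbr1 likewise had higher means in the cortical regions than in the hippocampal ones. Rasgrf2 went the other way, with its highest mean, 61.6, in DG, while CT had 46.3, FCT 39.9 and CA 35.8. Rorb hardly separated the regions, its means running from 24.6 (DG) to 28.8 (CT).

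The mean level of Arc was lower in flight mice than in ground mice of the same treatment in each of the 4 regions, and in CA, CT and, for saline mice, FCT and DG the groups did not overlap. In CA of BuOE mice the Q3-normalized count was 121, 119 and 122 in the 3 FLT-BuOE mice and 232, 249 and 236 in the 3 GC-BuOE mice. All ground mice lay above all flight mice, and both groups were tight, with means of 121 ± 1.77 and 239 ± 9.30 (SD, n = 3 each). In CA of saline mice it was 145, 109 and 122 in flight and 179, 273 and 173 on the ground. These groups did not overlap either, with means of 125 ± 18.3 and 208 ± 55.8 (SD, n = 3 each), and GC-SAL mouse 2 stood above the other 2 ground mice.

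In CT the same order held. FLT-BuOE mice had 203, 169 and 139 and GC-BuOE mice 379, 334 and 302 Q3-normalized counts of Arc, means of 170 ± 31.7 and 338 ± 38.2 (SD, n = 3 each). FLT-SAL mice had 129, 92.6 and 106 and GC-SAL mice 234, 365 and 383, means of 109 ± 18.4 and 327 ± 81.4 (SD, n = 3 each). Ground and flight mice were apart in both treatments. The lowest of the GC-SAL values, that of mouse 1, came from an AOI with 140 nuclei, the fewest of all 48, where others held up to 640.

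In FCT FLT-SAL mice had 89.2, 61.5 and 66.6 Q3-normalized counts of Arc, a mean of 72.4 ± 14.8 (SD, n = 3), whereas FLT-BuOE mice had 256, 224 and 260, a mean of 247 ± 19.7 (SD, n = 3). All FLT-BuOE mice were therefore above all FLT-SAL mice, with 89.2 the highest of the latter and 224 the lowest of the former. GC-SAL mice had 364, 176 and 373, a mean of 304 ± 112 (SD, n = 3), and GC-BuOE mice 518, 156 and 366, a mean of 347 ± 182 (SD, n = 3). The ground groups were the most spread of all combinations of region and group, because mouse 2 was far below the other 2 mice in each. That low value was seen in FCT alone, since the same GC-BuOE mouse had 249 in CA and 334 in CT and the same GC-SAL mouse 273 and 365. FLT-BuOE mice lay inside the range of GC-BuOE mice in FCT, while FLT-SAL mice lay below every GC-SAL mouse.

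DG had the least Arc and, on the log2 scale, the smallest differences between flight and ground. Counts after normalization were 40.8, 50.9 and 42.2 in FLT-SAL and 53.8, 61.4 and 71.0 in GC-SAL, so the saline groups did not overlap. They were 33.4, 53.8 and 40.02 in FLT-BuOE and 54.5, 55.0 and 46.7 in GC-BuOE, and these groups overlapped. The group means ran from 42.4 ± 10.4 in FLT-BuOE to 62.1 ± 8.63 in GC-SAL (SD, n = 3 each).

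**Figure D1:**
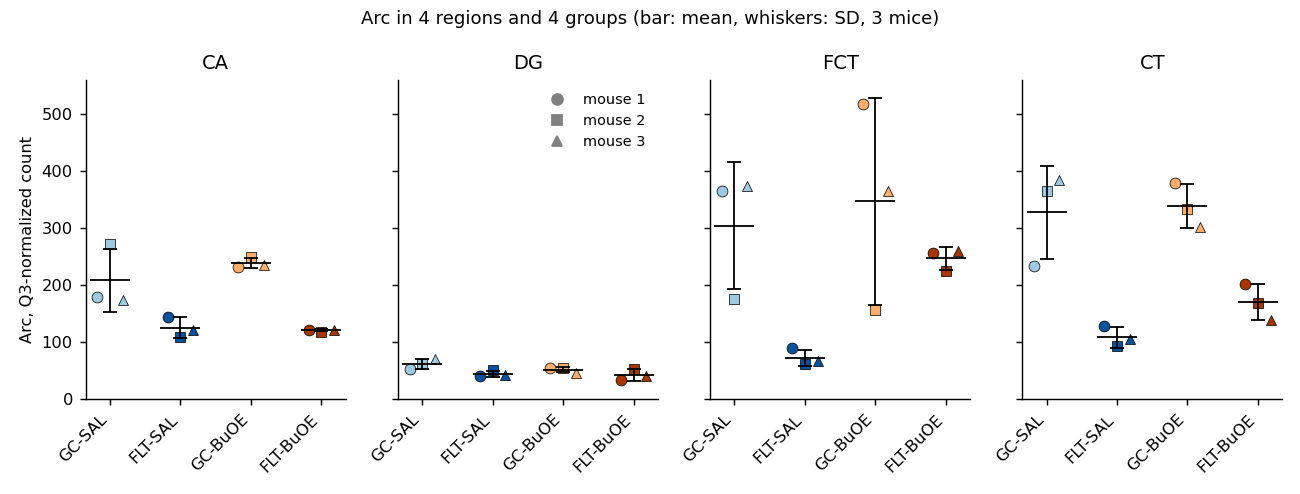
Q3-normalized count of Arc (vertical axis, linear) in each mouse, in 1 panel for each of the regions CA, DG, FCT and CT, with the 4 groups on the horizontal axis. Symbols mark mice 1, 2 and 3 of a group, the bar the mean and the whiskers the SD. Flight mice lie below ground mice of the same treatment in CA and CT, the FLT-SAL mice of FCT sit between 61.5 and 89.2, and mouse 2 is low in both ground groups of FCT.

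Ordered by mean level, the 16 combinations of region and group began with the 4 groups of DG, at 42.4 to 62.1 Q3-normalized counts. FCT of FLT-SAL mice came next at 72.4, directly above DG, although FCT had the highest mean of the 4 regions in both BuOE groups. Then followed CT of FLT-SAL (109), CA of FLT-BuOE (121), CA of FLT-SAL (125) and CT of FLT-BuOE (170). The upper part of the order held CA of GC-SAL (208), CA of GC-BuOE (239), FCT of FLT-BuOE (247), FCT of GC-SAL (304), CT of GC-SAL (327), CT of GC-BuOE (338) and FCT of GC-BuOE (347). Of the 15 steps between neighbours in this order, 14 joined groups whose ranges overlapped. Overlap alone does not show that such neighbours are alike. Some of their means lay apart by more than the larger SD of the pair. This held from DG of FLT-SAL to DG of GC-BuOE (1.35 times that SD) and from there to DG of GC-SAL (1.16). It also held from CA of FLT-SAL to CT of FLT-BuOE (1.43). At the other overlapping steps the gap was at most 0.70 times that SD. The step without overlap was that from FCT to CT of FLT-SAL mice. There 89.2 was the highest value of the former and 92.6 the lowest of the latter.

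In BuOE-treated mice Arc was lower in flight in CA and CT. The log2 fold change in CA was −0.98 (SE 0.155, 95% interval −1.29 to −0.67), a 1.97-fold lower level, with an adjusted p of 0.000419 (limma, Benjamini-Hochberg over 15782 genes). In CT it was −0.997 (SE 0.171, interval −1.34 to −0.65), 1.996-fold lower, with an adjusted p of 0.00278 by limma. Both passed the call rule of an adjusted p below 0.05 and a change beyond 1.5-fold. That rule called 0.0444% of all genes in CA, 7 genes, and 0.0253% as lower in flight. In CT it called 0.0127%, 2 genes, both lower. Arc had the 20th lowest log2 fold change of the 15782 genes in CA and the 5th lowest in CT. All ground mice were above all flight mice for 6.24% of genes in CA and for 5.58% in CT. An exact permutation test of 3 against 3 mice gave p = 0.1 (two-sided) in each of these regions, the smallest value it can give. The CT call was lost without FLT-BuOE mouse 3 (−0.86, adjusted p = 0.0918 by limma) and without GC-BuOE mouse 1 (−0.91, adjusted p = 0.0883 by limma), and the CA call when libraries were scaled to negative-control probes (−0.80, adjusted p = 0.0538 by limma). Scaled to nuclei, neither was called.

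In DG and FCT the flight change of BuOE mice did not pass. The log2 fold change was −0.31 in DG (SE 0.182, interval −0.68 to 0.05, adjusted p = 0.665 by limma) and −0.33 in FCT (SE 0.235, interval −0.80 to 0.14, adjusted p = 0.807 by limma). The intervals include no change and also falls of more than 1.5-fold. They rest on variances moderated over all genes and do not measure the spread of Arc alone. How these changes differ from those in CA and CT was tested only as cortex against hippocampus. Called genes made up 0.108% of all genes in DG (0.0634% lower in flight) and 0.019% in FCT (0.00634% lower). Ground mice were all above flight mice for 5.34% of genes in DG and 7.25% in FCT. The exact permutation p, two-sided, was 0.2 in DG and 0.7 in FCT. The FCT value rests on the spread of the ground mice: without GC-BuOE mouse 2 it was −0.82 and without GC-BuOE mouse 1 it was 0.04, and in neither case was it called.

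Averaged over the 4 regions, with the mouse as a block, Arc of BuOE mice was lower in flight, by a log2 fold change of −0.66 (SE 0.0977, interval −0.85 to −0.46), 1.57-fold, with an adjusted p of 6.25e-06 by limma. That fit took 1 correlation between regions of a mouse for all genes, 0.0158. The 4 AOIs of a mouse thus entered nearly as independent values. The same fit called 0.0887% of all genes, 14 in number (0.0634% lower in flight), and Arc had the 4th lowest value. The exact permutation test over mouse means gave p = 0.1, two-sided and the smallest possible. Without GC-BuOE mouse 1 the value was −0.54, below the 1.5-fold limit, at an adjusted p of 0.00182 by limma, and scaled to nuclei (−0.72) it was not called either. Whether the cortex (FCT and CT) and the hippocampus (CA and DG) responded differently was tested in the same fit. The difference of their flight changes was −0.02 (SE 0.189, interval −0.39 to 0.36), with an adjusted p of 0.9997 by limma, so differences of either sign within that interval remain possible. That limma contrast called 0% of genes (0 of 15782, with 853, 5.4%, at an unadjusted p below 0.05, and no count-based tool was run on it).

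In saline mice, given as description because Arc was chosen there, the log2 fold change of FLT-SAL against GC-SAL was −1.996 (SE 0.235) in FCT, 3.99-fold lower, and −1.56 (SE 0.171) in CT, 2.94-fold lower. In each of these regions it was the lowest value of all 15782 genes. In CA it was −0.71 (SE 0.155) and in DG −0.47 (SE 0.182), and these became −0.021 and −0.0206 when libraries were scaled to nuclei, where the median of all genes was 0.69 and 0.43. Ground mice were all above flight mice for 4.7% of genes in FCT, 5.23% in CT, 5.33% in CA and 7.45% in DG in this contrast, from which nothing is read.

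BuOE against saline within flight was also a description, since it shares the FLT-SAL mice. Arc differed by 1.77 (SE 0.235) on the log2 scale in FCT, 3.41-fold higher in FLT-BuOE and the highest value of all genes, and by 0.64 (SE 0.171) in CT. In CA the value was −0.04 (SE 0.155) and in DG −0.09 (SE 0.182). On the ground, GC-BuOE against GC-SAL gave 0.23 in CA, 0.10 in FCT, 0.07 in CT and −0.24 in DG. The flight change of BuOE mice minus that of saline mice was 1.67 (SE 0.332) in FCT, 0.56 (SE 0.241) in CT, 0.15 (SE 0.257) in DG and −0.27 (SE 0.219) in CA.

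**Figure D2:**
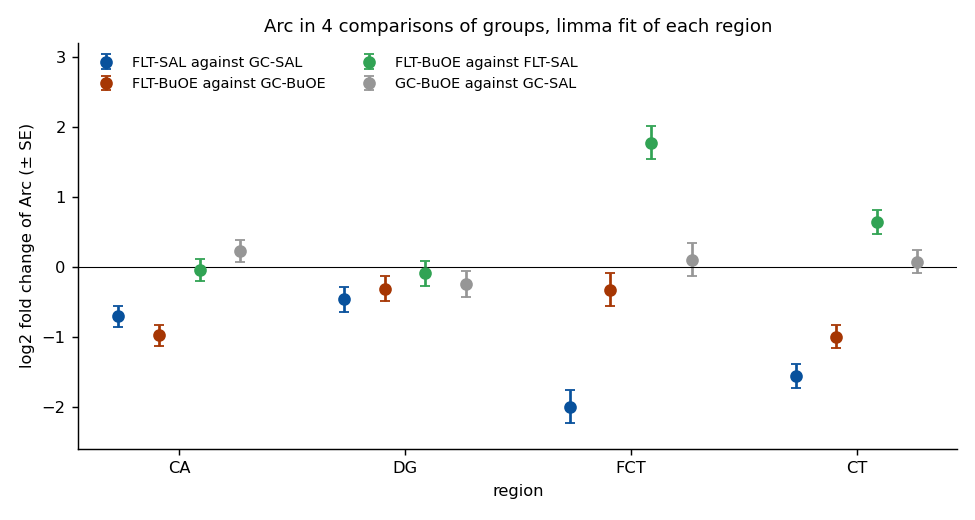
Log2 fold change of Arc (vertical axis) in 4 comparisons of groups for each region (horizontal axis), with whiskers of 1 SE from the limma fit of that region. The flight change is at or below −0.31 in every region and treatment, BuOE against saline in flight reaches 1.77 in FCT, and BuOE against saline on the ground stays between −0.24 and 0.23.

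Markers of other cell types moved with some of these contrasts. The 5 excitatory neuron markers (Slc17a7, Slc17a6, Neurod6, Nrgn and Camk2a, all measured) summed to 1453 to 1988 in FCT of FLT-SAL and 1730 to 1819 in GC-SAL, which overlap, against 2409 to 3023 in FLT-BuOE and 2070 to 2485 in GC-BuOE. In CA, where flight mice had less Arc, these neuronal markers were 2551 to 3102 in FLT-SAL against 1896 to 2373 in GC-SAL, and 2151 to 2705 in FLT-BuOE against 1854 to 2407 in GC-BuOE. None of these markers was called in BuOE mice, in which 0.0127% to 0.108% of all genes were called in a region. Nrgn and Camk2a make up most of each sum, with means of 1434 and 622 in CA, where Slc17a7 followed at 164. In CA of BuOE mice Slc17a7 (0.31), Nrgn (0.24) and Camk2a (0.09) were higher in flight on the log2 scale. Slc17a6 (−0.19) and Neurod6 (−0.17) were lower. The 5 microglial markers summed to 108 to 145 in CT of FLT-BuOE and 149.8 to 152 in GC-BuOE, without overlap, and to 129 to 150.4 and 143 to 169 in CA. In FCT microglial and meningeal sums overlapped between flight and ground in both treatments. In CT of BuOE mice, the excitatory markers were 2655 to 3446 in flight and 2468 to 2773 on the ground. In CA of BuOE mice the endothelial sum (3 of 4 markers measured) was 102 to 105 in flight and 107 to 152 on the ground, and the striatal sum (3 of 4) 97.8 to 117 and 79.0 to 88.1. In FCT of BuOE mice the sum of cortical layer markers (5 of 6) was 235 to 256 in flight and 204 to 216 on the ground. In saline mice the sums that did not overlap were higher in flight for CA1 pyramidal, astrocyte and interneuron markers in CA, for granule cell, excitatory, astrocyte and interneuron markers in DG and for interneuron markers in FCT. They were lower in flight for CA1 pyramidal and endothelial markers in CT. There Wfs1, Fibcd1 and Pou3f1 averaged 2.09, 1.40 and 2.93 times the negative control, and Cldn5, Flt1 and Ly6c1 2.67, 1.79 and 3.84 times. Microglial markers averaged 1.5 to 2.1 times it in CT, so these sums lie near background. Among all single genes, ground mice were all above flight mice in CT for 5.23% in saline and 5.58% in BuOE mice. The part of these marker differences in the Arc values was not tested.

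Between regions of the BuOE mice, Arc was lowest in DG and higher in FCT than in CA. Averaged over FLT-BuOE and GC-BuOE, FCT exceeded DG by 2.55 on the log2 scale (5.84-fold, interval 2.28 to 2.81), CT exceeded DG by 2.33 (5.04-fold) and CA exceeded DG by 1.85 (3.60-fold). All of these had an SE of 0.134 and passed the limma test with the mouse as a block, at adjusted p-values of 1.23e-26, 2.62e-24 and 5.38e-19. These p-values rest on AOIs of 6 mice that entered nearly as independent values, at a correlation of 0.0158 within a mouse. They also rest on variances moderated over all genes, so they do not measure the spread of Arc alone. Called genes made up 5.64%, 6.49% and 5.51% of all genes in these pairs, or 3.57%, 4.09% and 2.83% as higher outside DG, and Arc had the highest, the second highest and the 5th highest value of its pair. FCT exceeded CA by 0.70 (1.62-fold, adjusted p = 5.97e-05 by limma), a pair in which 5.04% of genes were called, 3.05% as higher in FCT. Without GC-BuOE mouse 1 that value was 0.50, under the 1.5-fold limit. CT exceeded CA by 0.49 (1.40-fold, interval 0.22 to 0.75, adjusted p = 0.00834 by limma), which is under the 1.5-fold limit and was not called. FCT and CT differed by 0.21 (interval −0.05 to 0.48, adjusted p = 0.999 by limma), and 0.0444% of genes were called between them. A share of 5.13% was called between CT and CA.

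The order of regions within a mouse was stable at its lower end. DG had the least Arc in 12 of 12 mice. The highest region was FCT in 6 mice, among them all 3 FLT-BuOE mice, CT in 3 and CA in 3. The mice with CA highest were the 3 FLT-SAL mice, in which FCT carried 0.692, 0.664 and 0.630 times the Arc of CT. In the 3 FLT-BuOE mice that ratio was 1.26, 1.33 and 1.87. On the ground it was 1.56, 0.482 and 0.973 in GC-SAL and 1.37, 0.468 and 1.21 in GC-BuOE. Ground mice thus lay on both sides of 1, while FLT-SAL mice were all below it and FLT-BuOE mice all above. CA held 2.14 to 5.05 times the Arc of DG in every mouse.

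**Figure D3:**
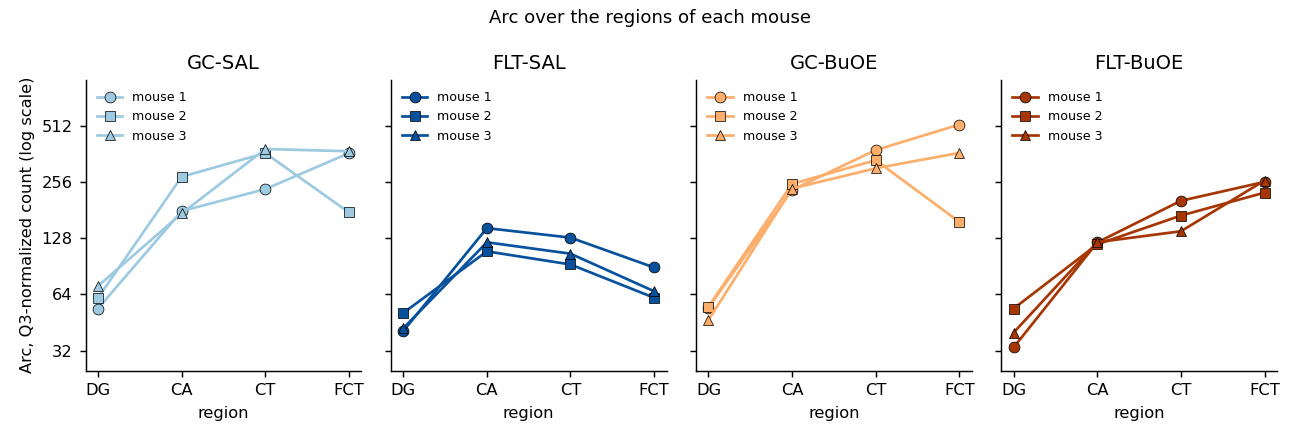
Q3-normalized count of Arc (vertical axis, log scale) over the regions DG, CA, CT and FCT (horizontal axis), with 1 line for each mouse and 1 panel for each group. Lines fall from CA to FCT in the 3 FLT-SAL mice and rise from CA to FCT in the 3 FLT-BuOE mice, and mouse 2 drops from CT to FCT in both ground groups.

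Whether a mouse kept a high or low level of Arc across regions was not settled by these values. After each value was set against its group mean, Arc in CT and CA had r = 0.42 over the 12 mice, FCT and CA −0.45, and FCT and CT 0.03. Pairs with DG had −0.21 for CA, −0.20 for FCT and 0.07 for CT. These are descriptions over 12 mice of 4 groups, whose slides are shared. Without that centring the pairs outside DG had r = 0.86, 0.45 and 0.74, values that include the differences between groups.

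Immediate early transcription factors, which neurons induce by the same inputs, were examined beside Arc. The list of 22, all measured, held Fos and Jun family members, the Egr zinc fingers, Nr4a nuclear receptors and Npas4, a factor specific to neurons. In FLT-BuOE against GC-BuOE, 0 of 22 were called lower in any region by limma and 1 was called higher, Junb in FCT. At an unadjusted p below 0.05 there were 7 in CA and 3 in DG, where such genes made up 7.52% and 8.24% of all genes, and 5 in FCT and 4 in CT, where they made up 7.17% and 6.65%. The list's median log2 fold change was −0.00 in CA and −0.03 in DG, beside −0.01 for all genes in each. It was −0.05 in FCT beside −0.04, and −0.03 in CT beside −0.00. By count of groups that did not overlap, 5 of 22 were lower in flight in CA, where 6.24% of all genes were. Those 5 were Egr1 (−0.59), Egr3 (−0.70), Nr4a2 (−0.52), Klf10 (−0.50) and Srf (−0.36), and the lowest adjusted p of the first 2 was 0.251 by limma. In DG, FCT and CT such members numbered 1, 3 and 3, where 5.34%, 7.25% and 5.58% of all genes were lower in this way.

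In saline mice, the contrast in which Arc was chosen, 2 of the 22 factors were called lower in CT, Egr3 and Nr4a1, in a region where 0.0887% of all genes were called, 0.0253% as lower. Egr3, a zinc-finger factor that binds the Arc promoter region, had 69.1, 80.0 and 92.4 Q3-normalized counts in FLT-SAL and 127, 180 and 147 in GC-SAL. Nr4a1, an orphan nuclear receptor, had 53.8, 47.5 and 51.3 in FLT-SAL and 82.5, 115 and 81.9 in GC-SAL. Neither pair of groups overlapped. All flight mice were below all ground mice in CT for 7 of the 22 factors, against 5.23% of all genes, namely Fos, Fosb, Egr1, Egr3, Nr4a1, Npas4 and Srf. The list's median in CT was −0.16 beside 0.01 for all genes, and in FCT it was −0.21 beside 0.03. In FCT all flight mice were below all ground mice for 6 members, against 4.7% of all genes. There 0 members were called, beside 0.0507% of all genes. Nothing is read from these counts, which share the mice on which Arc was picked.

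None of the factors was called beside Arc in CT of BuOE mice, where only 0.0127% of all genes were called. Egr1, the growth-response factor induced by synaptic stimulation, had 155, 181 and 119 Q3-normalized counts in FLT-BuOE and 136, 135 and 136 in GC-BuOE, with a log2 fold change of 0.14 (adjusted p = 0.924 by limma). Nr4a1 gave 0.04 and Npas4 0.16 there, and neither was called. Egr3 gave −0.46 (SE 0.162) with groups that did not overlap, and an adjusted p of 0.571 by limma. Fos was within 1.05 to 2.39 times the negative control on average in every combination, so its values carry little. Fosb reached at most 2.80 and Egr4 3.805 times the negative control.

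Junb, an AP-1 subunit, was called higher in flight in FCT of BuOE mice, where 0.019% of all genes were called. There it had 140, 145 and 133 Q3-normalized counts in FLT-BuOE and 82.2, 59.3 and 63.7 in GC-BuOE, a log2 fold change of 1.03 (SE 0.162, adjusted p = 0.00079 by limma). In saline mice of FCT it had 63.5, 52.9 and 61.2 in flight and 94.8, 68.3 and 73.0 on the ground, a log2 fold change of −0.39. Flight mice were thus all above ground mice under BuOE and all below under saline. In DG the directions were turned around, with 35.0, 43.8 and 41.1 in FLT-BuOE against 56.7, 56.3 and 55.6 in GC-BuOE and 61.5, 57.7 and 48.6 in FLT-SAL against 34.5, 39.1 and 39.0 in GC-SAL.

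Arc itself was absent from the promoter table used, and 18 of the 22 factors were found in it, from RefSeq on GRCm38.p6, with 300 bases each from 250 before to 50 after the start. The promoters of Junb and Nr4a1 are shown because Junb was the factor called in BuOE mice and Nr4a1 one of those called in saline mice. Both strands were searched for TGACG, the core of the cAMP response element, and for the CArG box of serum response factor. Capitals mark the matches, read on the gene's own strand, where CGTCA is TGACG on the other strand.
Junb (chr8:84978699-84978998, minus strand): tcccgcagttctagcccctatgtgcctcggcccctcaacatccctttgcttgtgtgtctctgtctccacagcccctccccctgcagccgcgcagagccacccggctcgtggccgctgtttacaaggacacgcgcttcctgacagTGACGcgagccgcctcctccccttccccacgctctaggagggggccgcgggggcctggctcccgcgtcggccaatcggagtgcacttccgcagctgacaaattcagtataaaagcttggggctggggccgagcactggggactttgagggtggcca
Nr4a1 (chr15:101266596-101266895, plus strand): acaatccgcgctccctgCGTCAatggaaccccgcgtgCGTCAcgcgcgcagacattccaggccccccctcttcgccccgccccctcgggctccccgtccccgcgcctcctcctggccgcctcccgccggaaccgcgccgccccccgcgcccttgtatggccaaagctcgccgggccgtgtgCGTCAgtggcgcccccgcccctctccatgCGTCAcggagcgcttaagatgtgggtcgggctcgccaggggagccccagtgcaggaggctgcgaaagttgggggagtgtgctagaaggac
Junb held 1 match to TGACG and Nr4a1 held 4, and neither held a CArG box. Among all 32851 promoters of the table, 20.8% held TGACG and 1.63% a CArG box. Of the 24 promoters of the 18 factors, some of which have several starts that overlap, 17 held TGACG and 5 a CArG box. The 5 with a CArG box belonged to Egr2 and Srf alone, several of them overlapping starts of Egr2. Such matches are descriptions of the letters in these windows.

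Effector genes that neurons induce along with Arc include Homer1, whose short form uncouples metabotropic glutamate receptors, Bdnf, Nptx2 and the Dusp phosphatases that switch off MAP kinases. Of 25 listed, 24 were measured, and the call rule took 0.0127% to 0.108% of all genes in a region of BuOE mice. In FLT-BuOE against GC-BuOE 0 were called in any region by limma, with 5 in FCT, 4 in CA, 3 in CT and 3 in DG at an unadjusted p below 0.05, a level passed by 7.17%, 7.52%, 6.65% and 8.24% of all genes in that order. The list's median was −0.17 in CA and −0.16 in FCT, beside −0.01 and −0.04 for all genes, and 0.00 in DG and −0.06 in CT. Members with all flight mice below all ground mice numbered 5 in CA (Homer1, Dusp1, Dusp5, Ptgs2 and Sik1) and 3 in each other region, where the share over all genes was 6.24% in CA, 7.25% in FCT, 5.58% in CT and 5.34% in DG.

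Homer1 is described because it was among the genes to be named whatever their values. In CA it was 27.6, 31.1 and 43.5 in FLT-BuOE against 54.8, 46.7 and 53.0 in GC-BuOE, with a log2 fold change of −0.60 (SE 0.216, adjusted p = 0.463 by limma). The groups did not overlap, but the change did not pass. Its change was −0.13 in DG, −0.57 in FCT and −0.49 in CT, none of them called. In saline mice the values were −0.81 in FCT, −0.60 in CA, −0.41 in CT and 0.19 in DG, also none called.

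Sgk1, a kinase induced by glucocorticoids as well as by activity, was the effector called in saline mice, and it was higher in flight. The calls were in CT and FCT, where 0.0887% and 0.0507% of all genes were called. It had 68.4, 85.0 and 91.3 in FLT-SAL and 35.2, 38.1 and 32.6 in GC-SAL in CT, and 93.2, 107.9 and 78.7 against 53.7, 47.1 and 43.6 in FCT. All flight mice were above all ground mice in both regions.

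**Figure D4:**
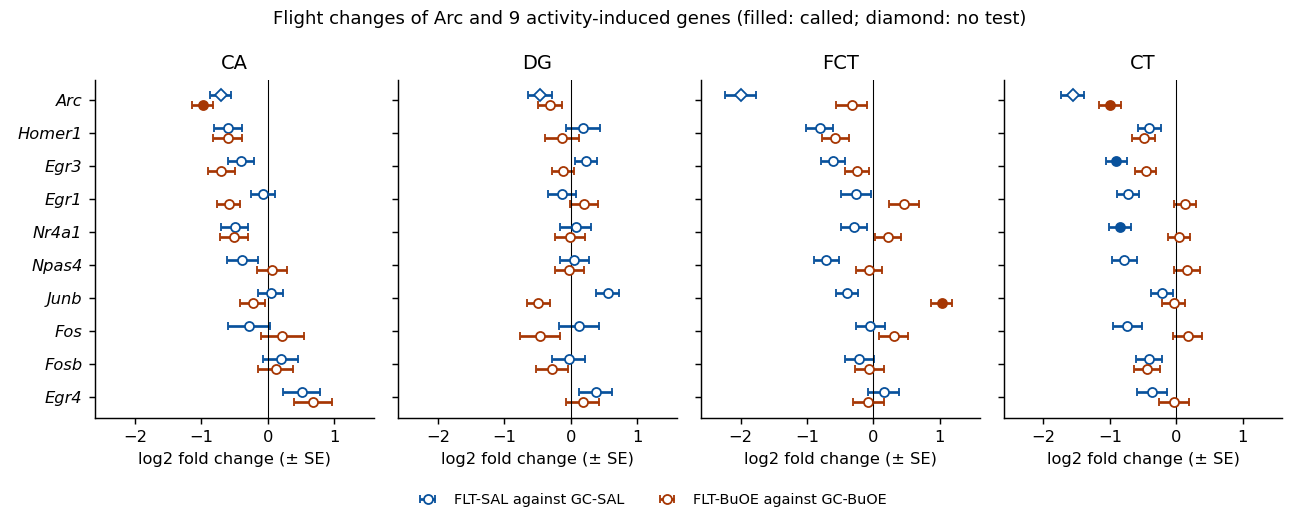
Log2 fold change in flight (horizontal axis) of Arc and 9 activity-induced genes (vertical axis) in each region, for saline and BuOE mice, with whiskers of 1 SE. Filled circles passed the call rule, and diamonds mark Arc in saline mice, where no test was made. Arc lies left of the other genes in FCT and CT of saline mice and in CA and CT of BuOE mice, and Junb lies right of 0 in FCT of BuOE mice.

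Genes that act with the ARC protein showed no call in BuOE mice, in which 0.0127% to 0.108% of all genes were called in a region. The list of 25 partners and AMPA receptor genes, 24 of them measured, held endophilins (Sh3gl1 to Sh3gl3), dynamins, the AP-2 adaptor, Dlg4 and the receptor subunits Gria1 to Gria4. By limma 0 of 24 were called in any region, with 3 in CA, 3 in DG, 1 in CT and 0 in FCT at an unadjusted p below 0.05. That level was passed by 7.52%, 8.24%, 6.65% and 7.17% of all genes in that order. Their median flight change under BuOE was 0.12 in CA, 0.10 in DG, 0.04 in CT and −0.02 in FCT. For all genes it was −0.01, −0.01, −0.00 and −0.04 in that order. In saline mice of DG 2 were called higher in flight, where 0.266% of all genes were called. Camk2b, a kinase subunit that binds ARC at inactive synapses, had 390, 366 and 369 Q3-normalized counts in FLT-SAL and 219, 289 and 244 in GC-SAL. Gria3 had 99.3, 89.4 and 93.6 against 48.3, 56.8 and 63.0. Neither gene's groups overlapped.

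Upstream of Arc transcription lie NMDA and metabotropic glutamate receptors, TrkB (Ntrk2), calcium channels, adenylyl cyclase and the factors CREB and MEF2. All 22 listed genes were measured, and 0 were called in BuOE mice in any region by limma. The share of all genes called there was 0.0127% to 0.108% in a region. In CA, DG, FCT and CT 3, 4, 1 and 4 had an unadjusted p below 0.05. That level was passed by 7.52%, 8.24%, 7.17% and 6.65% of all genes in that order. In CT, 7 of the 22 had all FLT-BuOE mice above all GC-BuOE mice, as had 5.43% of all genes, among them Grin1 (0.41), Camk4 (0.43) and Mef2c (0.36), with a list median of 0.10 beside −0.00. Adcy1, a calcium-stimulated cyclase, was called higher in DG of FLT-SAL mice, at 0.266% of all genes, with 457, 350 and 387 in FLT-SAL and 199, 249 and 244 in GC-SAL. Of the 12 genes that handle Arc mRNA or remove ARC protein, such as Fmr1, Eif4a3 and the ubiquitin ligase Ube3a, 0 were called in either treatment in any region by limma. Calls among all genes were 0.0127% to 0.108% in a region under BuOE and 0.0507% to 0.266% under saline. Under BuOE 4 of the 12 in FCT, 1 in CT and 0 in CA and DG had an unadjusted p below 0.05. For all genes that share was 7.17% in FCT, 6.65% in CT, 7.52% in CA and 8.24% in DG. Of 18 other genes with a Gag-like protein from retroelements 11 were measured, and 1, Rtl8a, was called, higher in CA, where 0.139% of all genes were called, of FLT-SAL mice (113, 97.5 and 89.3) than of GC-SAL mice (57.0, 53.4 and 53.4).

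Likeness to Arc was measured by Pearson's r of log2(Q3-normalized count + 1) over the 12 AOIs of a region, among genes at 1.5 times the negative control or more in every region. The points share slides within a group, so r over the 12 carries the group differences, and no p is given. The 3 most alike were Hyou1 (0.90), Fbxw7 (0.89) and Nrn1l (0.86) in CA, Rskr (0.89), Plekho2 (0.89) and Lamtor2 (0.87) in DG, Midn (0.92), Cx3cl1 (0.88) and Gm17027 (0.88) in FCT, and Scube1 (0.90), Dmtn (0.89) and Crip3 (0.86) in CT. No gene was among the top 3 of more than 1 region. Hyou1, a chaperone of the endoplasmic reticulum, had r = 0.61 in DG but 0.22 in FCT, and Midn, which takes proteins to the proteasome, had −0.24 in DG.

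The 5 genes with the highest median of r after centring on group means were Rad9a (0.65), Junb (0.64), Egr1 (0.64), Mtg2 (0.63) and Zmym4 (0.62). This measure leaves out the differences between groups and compares mice that share a slide. Egr1 reached 0.88 in FCT, 0.68 in CA, 0.60 in CT and 0.38 in DG. The FCT value comes with the same mice being low: Egr1 had 175, 65.1 and 117 Q3-normalized counts in GC-SAL and 235, 88.2 and 154 in GC-BuOE, so mouse 2 was the lowest of its group for Egr1 as for Arc. Junb had 0.72 in FCT and 0.65 in CA, yet −0.05 in CT. Over all 15781 other genes the median of this measure was 0.01, and over the 22 immediate early factors it was 0.14.

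Uncentred, Homer1 and Egr3 stood near Arc in 3 regions. Homer1 had r = 0.74 in CA, 0.86 in FCT and 0.84 in CT but −0.24 in DG, and Egr3 had 0.70, 0.83, 0.83 and 0.35. The list medians of r were 0.21 for immediate early factors and for effectors, −0.21 for ARC partners, and −0.01 for all genes.

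**Figure D5:**
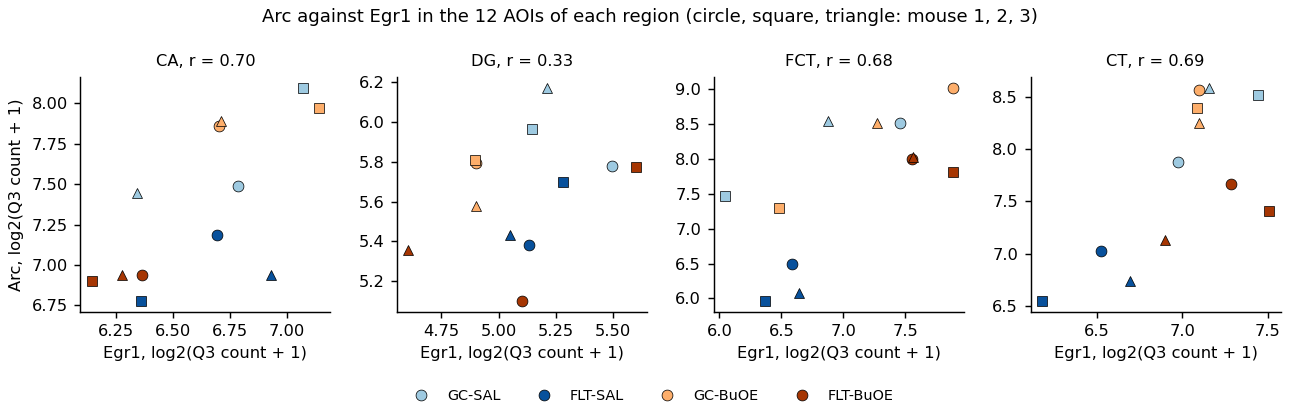
Arc (vertical axis) against Egr1 (horizontal axis), both as log2(Q3-normalized count + 1), in the 12 AOIs of each region, coloured by group, with the axes of each panel set to its own range. Pearson's r over the 12 AOIs is 0.70 in CA, 0.69 in CT, 0.68 in FCT and 0.33 in DG, and in FCT mouse 2 of both ground groups lies low in both genes.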

How the data were processed

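GeoMx profiles of 4 regions of 12 mice were analysed, with the mouse as replicate within a region. The authors processed reads with the GeoMx NGS Pipeline and deposited raw counts of 20175 probes for each AOI. The authors normalized each AOI by its upper quartile and deposited this Q3-normalized signal for 15782 genes. No genome build enters, since tags name probes. The authors' deposited fold changes and p-values (12 files) were not used. Whole counts were recovered for 99.98% of values (within 0.02 of a count), which allowed edgeR 4.0.16 and DESeq2 1.42.0 as alternatives on 15779 genes.

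The main test was limma 3.58.1 (R 4.3.3) on log2(Q3-normalized count + 1), 1 fit for the 12 AOIs of a region, with moderated variances that follow the mean level, and p-values adjusted over all genes (Benjamini-Hochberg). Fits over regions used 24 AOIs of 6 BuOE mice with the mouse as random block, at a correlation of 0.0158 within a mouse. A call needed a change past 0.585 on the log2 scale and an adjusted p under 0.05. Fold changes understate those of low genes because of the pseudocount of 1. The negative-control row stayed out of tests. Tests were tried on simulated counts. Arc, the gene lists and the tests were chosen with earlier results of these data known. Genes named are Arc, list members called in either flight contrast, 9 activity-induced genes whatever their values, the 3 genes of highest r in each region, the 5 of highest median centred r, and markers. List members named only because their groups did not overlap, the first examples of lists and the alternatives for Junb were chosen after their values were seen. P-values of limma rest on variances moderated over all genes, so they do not measure the spread of Arc alone. For Arc the fits had 45.1 to 65.7 degrees of freedom, against 8 residual ones in a region. The spread they use is that between mice of 1 slide. Alternatives changed the pseudocount, filter, scaling, tool, samples and block. Sums of cell type markers are given where flight and ground mice did not overlap, and for excitatory, microglial and meningeal markers where they did, and 1 class is not reported here.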

Additional observations from a re-analysis of the deposited data

Results flagged for a closer look

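Junb in FCT was flagged because its flight change differed between the treatments: BuOE minus saline mice gave 1.42 on the log2 scale (SE 0.23, adjusted p = 0.0025 by limma). Flight mice were higher in 3 of 3 against 3 under BuOE and lower in 3 of 3 against 3 under saline. In DG Junb was flagged for the reverse pattern, with a difference of -1.05 (SE 0.248) that did not pass (adjusted p = 0.213 by limma). Scube1 in CA was flagged because all FLT-BuOE mice (38.5 to 49.7) were above all GC-BuOE mice (22.7 to 31.6) while all FLT-SAL mice (24.6 to 27.1) were below all GC-SAL mice (34.3 to 40.02), with a difference of 1.09 (SE 0.33) that did not pass (adjusted p = 0.908 by limma). These named genes were compared in each of 4 regions, Arc itself was left out because it was chosen on saline mice, and groups of 3 mice are too small for a check of single outlying samples.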

How the results depend on the processing

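The flight change of Arc in BuOE mice was negative under every alternative in CA (-1.002 to -0.80), DG (-0.50 to -0.16) and CT (-1.13 to -0.86). The call in CA was lost when libraries were scaled to negative-control probes (-0.80, adjusted p = 0.0538) or to nuclei (-0.93), and the call in CT when scaled to nuclei (-1.02). Leaving out 1 mouse gave -1.002 to -0.95 in CA, and in CT -1.13 to -0.86, where the call was lost without FLT-BuOE mouse 3 (-0.86, adjusted p = 0.0918) and without GC-BuOE mouse 1 (-0.91, adjusted p = 0.0883). In FCT leaving out 1 mouse gave -0.82 to 0.041. The mean over regions was not called when scaled to nuclei (-0.72), and ranged from -0.76 to -0.54 when 1 mouse was left out. Cortex minus hippocampus turned to 0.0058 when scaled by total count and ranged from -0.30 to 0.20 when 1 mouse was left out. FCT against CA was not called when scaled to nuclei (0.55) and was 0.50 to 0.96 when 1 mouse was left out. CT against CA became called when scaled to negative-control probes (0.83). The causes were not tested.

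Scaled to negative-control probes, the median of all genes was 0.16 in CA of BuOE mice. Scaled to nuclei, it was 0.69 in CA, 0.39 in FCT, 0.43 in DG and -0.10 in CT for FLT-SAL against GC-SAL. Arc relative to that median was -0.72, -2.02, -0.45 and -1.57 in that order, and Arc itself was -0.021 in CA and -0.0206 in DG. With the same scaling to nuclei, BuOE against saline in flight gave -0.54 in CA and -0.60 in DG, against 1.11 in FCT and 0.20 in CT, and on the ground -0.44 in CT. The difference of flight changes, also scaled to nuclei, was -0.90 in CA, -0.37 in DG and 1.07 in FCT.

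Numbers of genes called in BuOE mice moved most. In CA, 7 (4 lower in flight) became 17 scaled to negative-control probes (1 lower), 1 scaled to nuclei, 20 in edgeR, 1 in DESeq2 and 15 with the replicate number as a block, and 1 to 12 without 1 mouse. In DG, 17 (10 lower) became 5 scaled to negative-control probes (2 lower), 1 scaled to nuclei, 8 in DESeq2, 28 with the block and 6 to 22 without 1 mouse. In FCT, 3 became 0 scaled to nuclei in limma (585 at an unadjusted p below 0.05) and 1 in DESeq2, and 2 to 6 without 1 mouse. In CT, 2 became 4 scaled to negative-control probes, 0 scaled to nuclei in limma (7 at an unadjusted p below 0.05) and 5 in edgeR, and 1 to 3 without 1 mouse. Mice of the same number shared only that number: over 48 pairs their deviations from group means had r between -0.18 and 0.10, none above 0.1, although 31 of the 48 were the best match among the numbers, a hint from the data and not the design. With the block Arc in BuOE mice kept its calls, at adjusted p-values of 2.8e-05 in CA and 0.000454 in CT. Junb in FCT, tried after it was seen, was called under 21 of 22 alternatives, the exception being nuclei (0.80).

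Of 704 alternative values, 652 kept their direction and side of the threshold or stayed within the spread. Arc counts were fewest in DG, and 3 mice a group limit every permutation test.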
